A study of Sus scrofa with 6 samples.

Results

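Prostaglandin synthesis was followed through 3 genes in pig aortic valve leaflets: PTGS2, the inducible cyclooxygenase; PTGES, the inducible terminal synthase that makes prostaglandin E2; and PTGS1, the constitutive cyclooxygenase. They were taken as every probe set, control probe sets aside, that the platform annotation gives exactly 1 gene symbol which is one of these names. All 3 genes were found, on 4 of 23999 probe sets, with 1 probe set each for PTGS2 and PTGES and a pair for PTGS1. The leaflets came from adult female pigs and were treated with collagenase to remove their endothelium. They spent a night in medium with serum before 24 h in a pressure bioreactor cycling at 1 Hz. Cyclic pressure ran from 0 to 120 mmHg in the hypertensive group and from 0 to 80 mmHg in the normotensive group, with 3 samples in each. Both groups were otherwise handled alike, so neither is fresh tissue, and no unpressurised leaflets were analysed here. The labels call the samples biological replicates without saying whether they came from separate animals, so each p-value rests on a spread between samples that may share a donor.

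Prostaglandins are lipid messengers made from arachidonic acid, which phospholipase A2 releases from membranes. A cyclooxygenase turns it into prostaglandin H2, and a terminal synthase then makes the final product, prostaglandin E2 in the case of PTGES. PTGS1 is present in many resting cells and is prominent in endothelium and platelets, whereas PTGS2 and PTGES are low in most resting tissues and are induced by cytokines such as interleukin-1, PTGS2 also by mechanical load.

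Transcript levels are deposited MAS5 signals on a linear scale, with 1 array per sample; a difference is given on the log2 scale, hypertensive minus normotensive, with the standard error (SE) of a limma fit across 14399 probe sets. These were the probe sets whose mean log2 signal reached the 40th percentile, a signal of 48.5, called the filter level here. The arrays had been scaled to a common trimmed mean, so a shift of most transcripts together would not be seen. Correlations over these probe sets were 0.946 to 0.957 between hypertensive replicate 2 and the normotensive arrays, 0.885 to 0.904 for hypertensive replicate 3 and 0.810 to 0.823 for hypertensive replicate 1, against 0.952 to 0.978 among normotensive arrays. Results that rest on these hypertensive arrays are therefore given array by array. In whole leaflets, fewer cells of a type and less RNA per cell cannot be told apart.

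Signal of PTGS2, the cyclooxygenase that cells switch on, was above every normotensive array on all 3 hypertensive arrays, but the difference did not pass the threshold over all probe sets. PTGS2 was at 15802, 3240 and 2465 on hypertensive replicates 1, 2 and 3. It was at 1918, 893 and 1885 on normotensive replicates 1, 2 and 3. The groups did not overlap, and hypertensive replicate 1 stood far above the other hypertensive arrays, while replicate 3 lay close to the upper normotensive arrays. The mean log2 difference was 1.76 (SE 0.66, n = 3 each), a signal 3.39 times the normotensive level, with a 95% interval of the log2 difference of 0.24 to 3.29 (limma, unadjusted p = 0.0285, adjusted p = 0.274). By size of positive difference PTGS2 ranked 191 among 14399 probe sets. Without hypertensive replicate 1 the fold was 1.91 (log2 0.94, adjusted p = 0.525), so much of the size of the mean came from that array.

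PTGES, which works downstream of PTGS2, had higher signal on a pair of hypertensive arrays and a signal within the normotensive range on the last. Its signal was 5355, 4762 and 2652 on hypertensive replicates 1, 2 and 3. On the normotensive arrays it was 2672, 2122 and 2293. The groups overlapped by a small margin, because hypertensive replicate 3 lay just below normotensive replicate 1. The log2 difference was 0.79 (SE 0.30, n = 3 each), a signal 1.73 times the normotensive level, with a 95% interval of 0.11 to 1.47 (limma, unadjusted p = 0.0277, adjusted p = 0.273). The SD of log2 signal was 0.54 on the hypertensive arrays, against 0.17 on the normotensive arrays, which lay close together.

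PTGS1 showed no difference larger than the spread between arrays. The signal of its brighter probe set was 4920, 5816 and 4681 on hypertensive replicates 1, 2 and 3, and 5366, 7285 and 4292 on the normotensive arrays. All hypertensive arrays fell inside the normotensive range. The log2 difference was -0.11 (SE 0.24, n = 3 each; limma, adjusted p = 0.821), and its 95% interval of -0.65 to 0.43 covers signals of 0.638 to 1.35 times the normotensive level. Without normotensive replicate 2, the brightest array, the log2 difference turned to 0.09. The further PTGS1 probe set was dim, at 45.6, 36.1 and 17.5 on the hypertensive arrays and 56.4, 68.4 and 39.4 on the normotensive arrays. It did not reach the filter level on average and entered no test, and its groups overlapped.

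**Figure D1:**
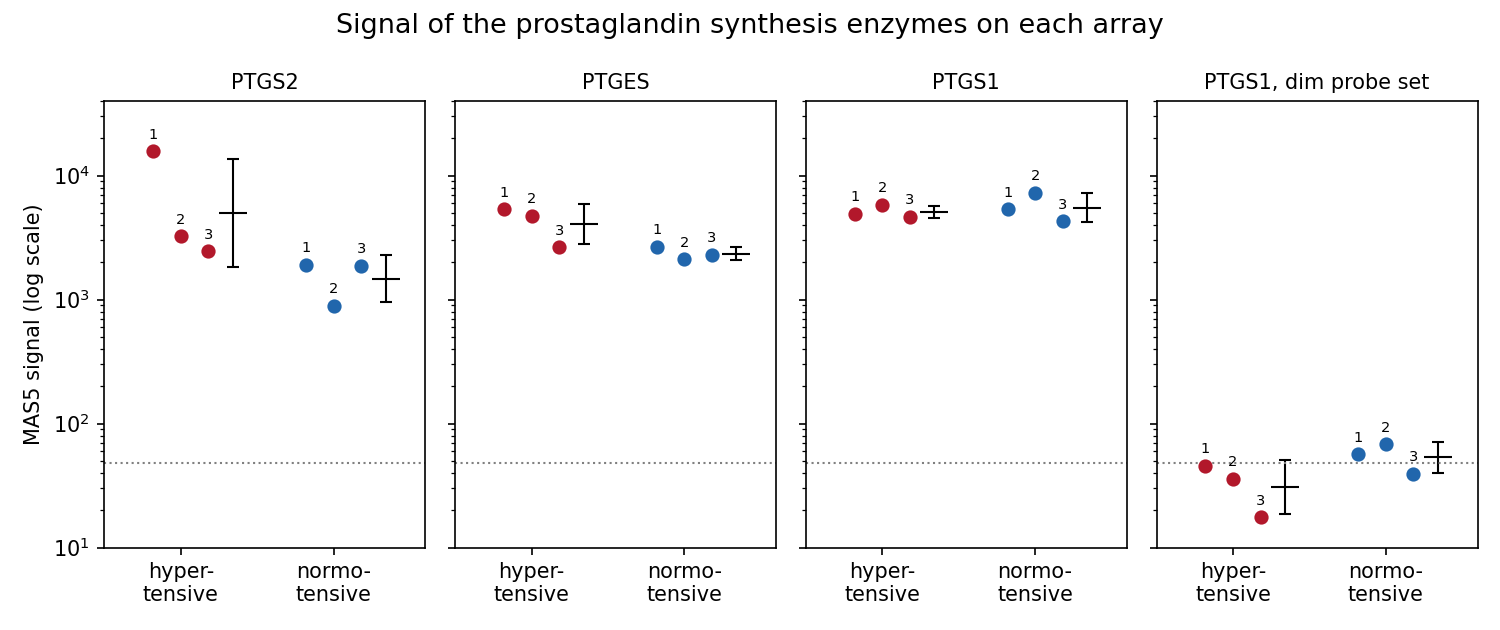
MAS5 signal (log scale) of PTGS2, PTGES and both PTGS1 probe sets on each hypertensive (red) and normotensive (blue) array, with replicate numbers; the bar is the geometric mean with 1 SD of log2 signal, n = 3, and the dotted line is the filter level of 48.5. All 3 hypertensive arrays lie above the normotensive arrays for PTGS2, 2652 against 2672 makes the groups of PTGES overlap, and PTGS1 overlaps throughout.

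By limma, 0 of the 3 tested genes passed an adjusted p of 0.05, as did 0 of all 14399 probe sets (0%). At an unadjusted p under 0.05, 2 of the 3 genes (PTGS2 and PTGES) were higher, where 7.39% of all probe sets were higher and 9.53% lower in this way. PTGES no longer did so without hypertensive replicate 1 or 2, without normotensive replicate 2 or 3, or with array weights. PTGS2 no longer did so without normotensive replicate 2 or with array weights. In 1 of the 3, PTGS2, the hypertensive arrays lay wholly above the normotensive arrays, as they did in 10.4% of probe sets, and they lay wholly below in 12.0%. Without hypertensive replicate 2, the array nearest to the normotensive ones, 24.3% of probe sets passed (10.3% higher, 14.0% lower), but PTGS2 (adjusted p = 0.0679), PTGES (adjusted p = 0.140) and PTGS1 (adjusted p = 0.569) did not. With array weights 39.2% passed, and again none of these 3 genes (adjusted p of 0.129, 0.419 and 0.433 for PTGS2, PTGES and PTGS1).

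The contrast of the inducible with the constitutive cyclooxygenase was made within each array, as log2 PTGS2 signal minus log2 PTGS1 signal, so that any scaling of a whole array cancels. Signals of different probe sets have no common scale, and only the shift of this value between groups is read. The value was 1.68, -0.84 and -0.93 on hypertensive replicates 1, 2 and 3. It was -1.48, -3.03 and -1.19 on normotensive replicates 1, 2 and 3. All hypertensive arrays lay above all normotensive arrays, with replicate 3 of each group nearest to the other group. PTGS2 thus shifted against PTGS1 by 1.87 on the log2 scale, with group means of -0.03 ± 1.48 in hypertensive and -1.90 ± 0.99 in normotensive leaflets (SD, n = 3 each). The exact 2-sided permutation test gave p = 0.1, the smallest that 3 arrays against 3 allow, and 0.15 after Benjamini-Hochberg adjustment over the 3 pairs of genes compared. Without hypertensive replicate 1 the shift was 1.02, and without normotensive replicate 2 it was 1.31.

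PTGES shifted against PTGS1 in the same direction. The within-array value, log2 PTGES minus log2 PTGS1, was 0.12, -0.29 and -0.82 on hypertensive replicates 1, 2 and 3 and -1.01, -1.78 and -0.90 on the normotensive arrays. The groups did not overlap, by a margin of less than the spread in either group. The shift was 0.90, with means of -0.33 ± 0.47 in hypertensive and -1.23 ± 0.48 in normotensive leaflets (SD, n = 3 each; exact permutation p = 0.1, adjusted 0.15). It fell to 0.63 without normotensive replicate 2, the array with the highest PTGS1 and the lowest PTGES signal. PTGS2 and PTGES could not be separated from each other: the shift of PTGS2 minus PTGES was 0.97, on values of 1.56, -0.56 and -0.11 in hypertensive leaflets and -0.48, -1.25 and -0.28 in normotensive leaflets (exact permutation p = 0.3, adjusted 0.3). Those groups overlapped, and without hypertensive replicate 1 the shift was 0.34.

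**Figure D2:**
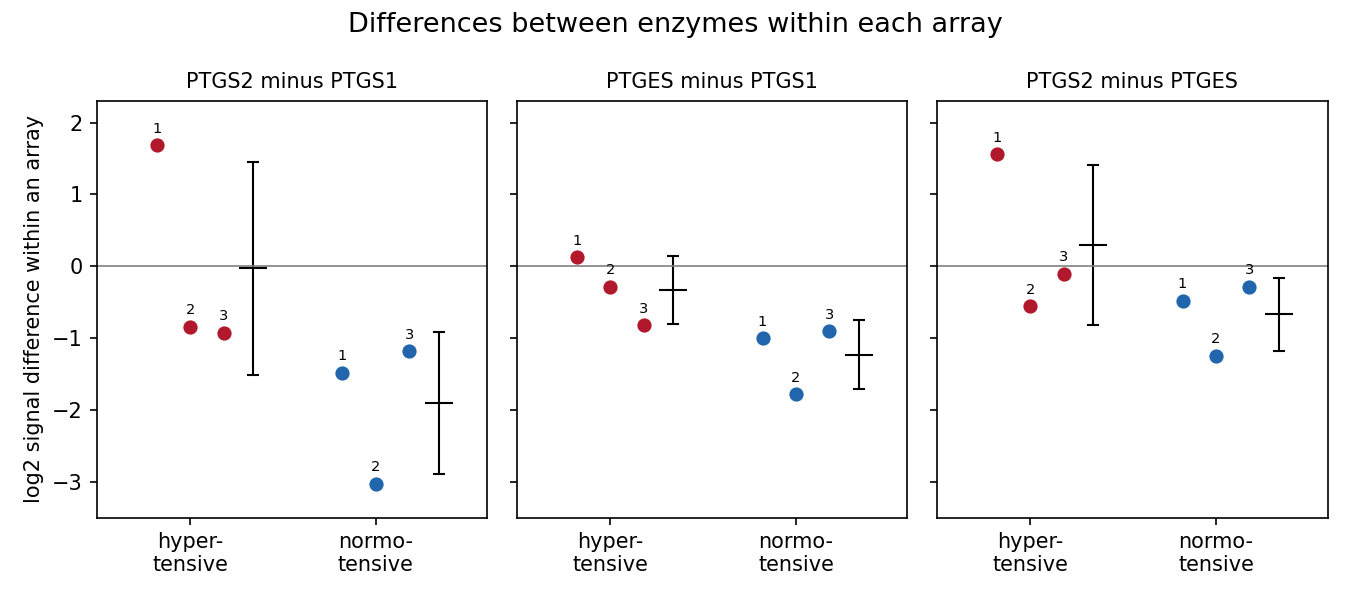
Within-array difference of log2 signal for PTGS2 minus PTGS1, PTGES minus PTGS1 and PTGS2 minus PTGES on hypertensive (red) and normotensive (blue) arrays, with replicate numbers and the mean ± SD beside the points (n = 3). The hypertensive arrays lie above the normotensive arrays in the first pair of panels (shifts of 1.87 and 0.90) and overlap them in the last.

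PTGS2 and PTGES were both highest on hypertensive replicate 1 and lowest on replicate 3, by unlike amounts, whereas PTGS1 was highest on replicate 2. On hypertensive replicate 1, PTGS2 was 3.42 above the normotensive mean on the log2 scale, PTGES 1.19 above it and PTGS1 0.16 below it (-0.16). On hypertensive replicate 2 PTGS2 and PTGES were 1.13 and 1.02 above it, so nearly level with each other, and PTGS1 was at 0.08. On hypertensive replicate 3 the values were 0.74 for PTGS2, 0.17 for PTGES and -0.24 for PTGS1. Replicate 2 differed least from the normotensive arrays over all probe sets, with a median absolute difference of 0.29 from their mean, against 0.70 for replicate 1 and 0.50 for replicate 3. On that array only 2.25% of probe sets were raised more than PTGS2 and 3.11% more than PTGES. The corresponding shares were 0.701% and 11.03% on replicate 1, and 15.05% and 37.9% on replicate 3.

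The other genes of the pathway were taken from lists by role, and the brightest probe set stood for a gene. Among 12 genes sought for arachidonate release, 3 had a named probe set and 2 reached the filter, and 0 of the 2 passed the test in either direction. ANXA1, the annexin known for opposing phospholipase A2, was at 20478, 17202 and 16936 on hypertensive replicates 1, 2 and 3, and at 13931, 14495 and 14020 on the normotensive arrays. Every hypertensive array exceeded every normotensive one, by a small fold of 1.28 (log2 0.36, SE 0.13, adjusted p = 0.273). With quantile normalization the log2 difference of ANXA1 was 0.19 (limma, adjusted p = 0.409). PLA2G12A, a secreted phospholipase A2, was at 360, 1201 and 943 on hypertensive arrays against 854, 1004 and 799 on normotensive arrays, with overlapping groups; its log2 difference of -0.25 turned to 0.27 without hypertensive replicate 1.

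Of 9 further synthases sought, 5 were measured and 2 reached the filter, with 0 passing in either direction. PTGES3, a cochaperone also described as the cytosolic prostaglandin E synthase, was at 2956, 5356 and 2423 on hypertensive replicates 1, 2 and 3 and at 4617, 3916 and 5451 on the normotensive arrays. Only hypertensive replicate 2 reached the normotensive range (log2 difference -0.45, SE 0.31, adjusted p = 0.447). Without that array PTGES3 passed (log2 -0.79, adjusted p = 0.0339), and a dimmer PTGES3 probe set went the opposite way, at 142, 353 and 189 on hypertensive and 86.0, 92.7 and 88.0 on normotensive arrays, so no direction is given for the gene. PTGDS, the prostaglandin D2 synthase, was at 222, 207 and 149 in hypertensive leaflets against 129, 150 and 121 in normotensive leaflets, a log2 difference of 0.51 (SE 0.29, adjusted p = 0.376) with groups that overlapped by a small margin.

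Of 9 prostanoid receptors sought, 2 were measured and 1 reached the filter. This was PTGFR, the receptor of prostaglandin F2 alpha, at 1117, 1521 and 4518 on hypertensive replicates 1, 2 and 3 and at 1749, 1568 and 2007 on normotensive arrays. Replicate 3 alone was high and the other hypertensive arrays were below the normotensive range. The log2 difference of 0.16 (SE 0.48, adjusted p = 0.878) turned to -0.44 without replicate 3. PTGER3, a prostaglandin E2 receptor, was below the filter level on all 6 arrays.

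Both measured enzymes of prostaglandin inactivation, PTGR1 and PTGR2, had lower means, where 47.3% of all probe sets had higher means. Of 5 genes sought for transport and breakdown, 2 were measured, both reached the filter and 0 passed in either direction. PTGR1, a reductase that inactivates prostaglandin metabolites and leukotriene B4, was at 190, 706 and 588 on hypertensive replicates 1, 2 and 3 and at 1052, 1222 and 1206 on normotensive arrays. The groups did not overlap, and replicate 1 was lowest. The log2 difference was -1.43 (SE 0.48), a level 0.370 times the normotensive one (adjusted p = 0.266), and PTGR1 passed without hypertensive replicate 2 (log2 -1.79, adjusted p = 0.0256). Without hypertensive replicate 1 the level was 0.557 times the normotensive one (log2 -0.84, adjusted p = 0.410). PTGR2, its relative, was at 1378, 3824 and 1565 on hypertensive arrays against 2982, 2932 and 3039 on normotensive arrays, with replicate 2 above and the others below the normotensive range (log2 -0.56, SE 0.38, adjusted p = 0.436; without replicate 2, log2 -1.02, adjusted p = 0.0111).

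The leukotriene branch competes for the same arachidonic acid. Of 9 genes sought, 4 were measured and 1 reached the filter, ALOX5AP, the protein that presents arachidonic acid to 5-lipoxygenase. ALOX5AP was at 64.9, 226 and 71.9 on hypertensive replicates 1, 2 and 3 and at 560, 354 and 557 on normotensive arrays. All hypertensive arrays lay below all normotensive ones, with a log2 difference of -2.24 (SE 0.50), a level 0.212 times the normotensive one (adjusted p = 0.222). It passed without hypertensive replicate 2 (log2 -2.81, adjusted p = 0.00244). ALOX5AP is expressed mainly in leukocytes. Of 6 leukocyte markers, 2 had higher and 4 had lower means, where 47.3% of all probe sets had higher means. PTPRC was wholly lower, at 36.9, 52.6 and 15.3 in hypertensive and 55.8, 127 and 66.0 in normotensive leaflets. It was below the filter level on hypertensive replicates 1 and 3. The summed leukocyte marker signal was 913 to 4082 on hypertensive and 2784 to 5124 on normotensive arrays, and CD14 and CORO1A had higher means. CORO1A was wholly higher, at 173, 107 and 102 in hypertensive and 70.2, 93.7 and 55.3 in normotensive leaflets. For CD163, counted as lower, and CORO1A a further probe set had the opposite sign. The part of leukocytes in the ALOX5AP difference was not tested.

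Over these 5 lists, 8 genes reached the filter, at most 2 in a list and with unlike directions within the release and synthase lists, so no list median is given. The calls made without hypertensive replicate 2 came from the fit in which 14.0% of all probe sets passed as lower.

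**Figure D3:**
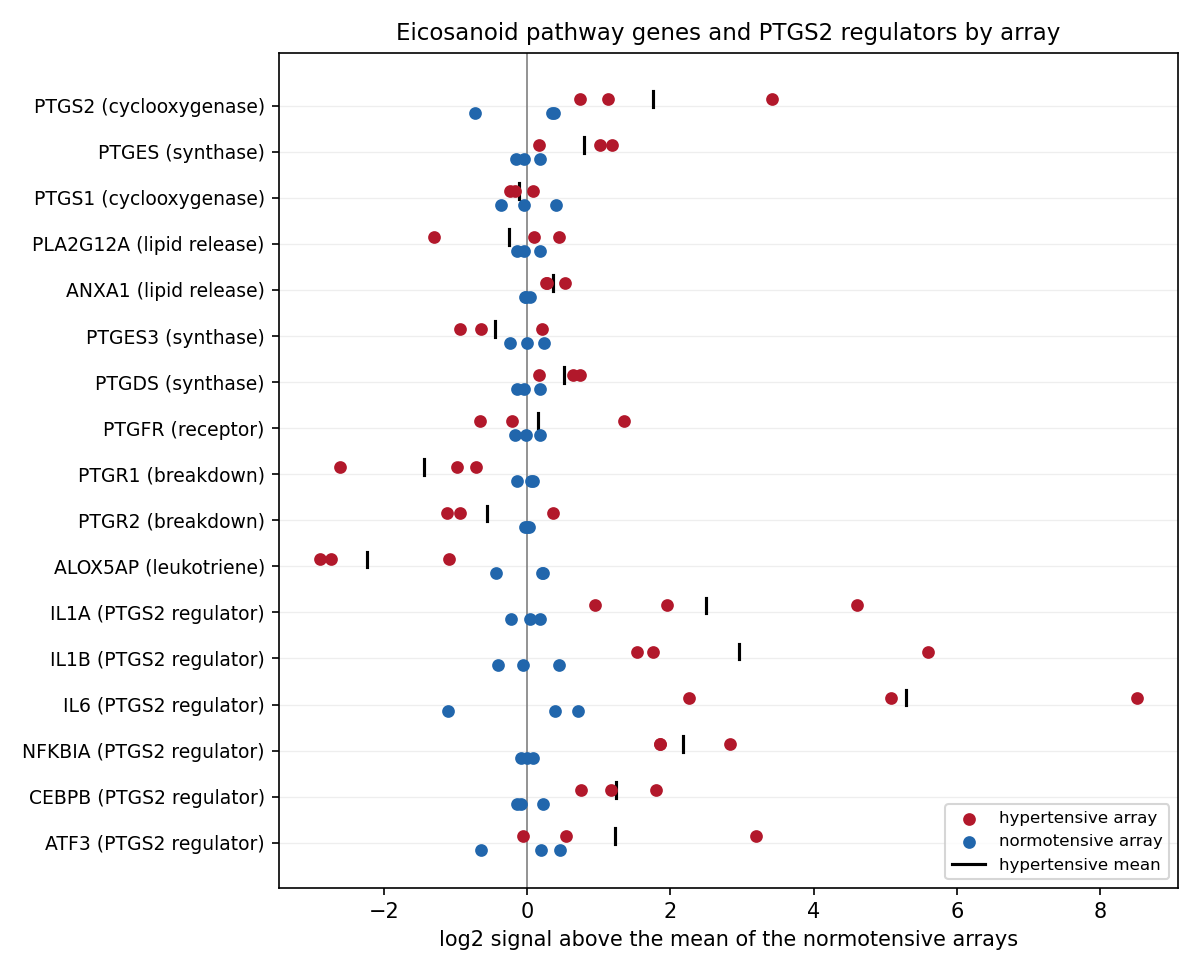
Log2 signal of PTGS2, PTGES, PTGS1, the other pathway genes that reached the filter and the named PTGS2 regulators on each hypertensive (red) and normotensive (blue) array, as distance from the gene's normotensive mean. The black tick is the hypertensive mean (n = 3). PTGS2 and the interleukins lie to the right with replicate 1 farthest out, while PTGR1 and ALOX5AP lie to the left.

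Known regulators of PTGS2 mRNA, namely cytokines, transcription factors and RNA-binding proteins, were a further list of 16 genes, of which 15 were measured and 12 reached the filter. None of the 12 passed over all probe sets by limma; 5 were higher and 0 lower at an unadjusted p under 0.05, where 7.39% of all probe sets were higher and 9.53% lower. The hypertensive arrays lay wholly above the normotensive ones in 5 of the 12, against 10.4% of all probe sets. Of the 12, 8 had higher and 4 lower means, where 47.3% of all probe sets had higher means. The list was drawn up with earlier results of these data known, so these shares are no independent support. The median log2 difference of the 12 was 0.77, where that of all 14399 probe sets was -0.04. The 6 of smallest p, all with higher means, are named. NFKBIA, the NF-kB inhibitor that NF-kB itself induces, was at 17111, 8643 and 8687 on hypertensive replicates 1, 2 and 3 and at 2531, 2265 and 2395 on normotensive arrays (log2 2.18, SE 0.28, adjusted p = 0.115). CEBPB, a transcription factor that binds the PTGS2 promoter, was at 9914, 6385 and 4789 on hypertensive arrays against 2688, 3302 and 2590 on normotensive arrays (log2 1.24, SE 0.28, adjusted p = 0.222). The groups did not overlap in either gene. Of the named regulators, CEBPB and ATF3 had the hypertensive arrays in the order of PTGS2. In IL1A, IL1B and IL6 hypertensive replicate 2 was the lowest of the 3, unlike in PTGS2. In NFKBIA hypertensive replicates 2 and 3 were nearly level.

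Interleukin-1 is a well known inducer of PTGS2 and PTGES. IL1B was at 8695, 524 and 612 on hypertensive replicates 1, 2 and 3 and at 174, 247 and 137 on normotensive arrays (log2 2.96, SE 0.96, adjusted p = 0.262). IL1A was at 2831, 226 and 450 on hypertensive arrays against 100, 132 and 120 on normotensive arrays (log2 2.50, SE 0.80, adjusted p = 0.259). In both, as in PTGS2, hypertensive replicate 1 was far above the rest. That array also differed most from the normotensive mean over all probe sets, with a median absolute log2 difference of 0.70. Without hypertensive replicate 1 the log2 differences were 1.65 for IL1B and 1.45 for IL1A, and without hypertensive replicate 2 they were 3.68 and 3.27. The part of these cytokines, or of the other regulators, in the PTGS2 and PTGES differences was not tested. IL6, a further inflammatory cytokine, was at 22566, 297 and 2104 on hypertensive arrays against 81.5, 101 and 29.0 on normotensive arrays (log2 5.28, SE 1.34, adjusted p = 0.235; without replicate 1, log2 3.67). Its normotensive signal lay near the filter level, and below it on replicate 3, so the size of its difference is uncertain. With a pseudocount of 64 it was 4.32, a fold of 19.9 in place of 38.9. ATF3, a stress-induced transcription factor, was at 4875, 776 and 513 in hypertensive leaflets and 733, 340 and 608 in normotensive leaflets, with overlapping groups (log2 1.23, SE 0.77, adjusted p = 0.411). The log2 difference of ATF3 was 0.24 without hypertensive replicate 1 and 1.87 without replicate 3. NFKBIA, CEBPB, IL6, IL1A and IL1B passed without hypertensive replicate 2, with adjusted p of 0.00330, 0.0235, 0.00466, 0.0138 and 0.0283, in a fit where 24.3% of all probe sets passed and 10.3% did so higher.

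The genes whose pattern over the 6 arrays was most like that of each enzyme were found among 5270 other named genes by Pearson's r of log2 signal, a description over 6 arrays of both groups. For PTGS2 they were PAPD5, a poly(A) polymerase (r = 0.991), the membrane protein gene TMEM128 (0.988), LEPROTL1 (0.975) and MCL1, an inhibitor of apoptosis (0.974). These genes moved by less than PTGS2 did, with log2 differences of 0.86, 0.45, 0.26 and 0.40. For PTGES they were RND3 (r = 0.989), the ubiquitin-conjugating enzyme UBE2Q1 (0.989), the lysosomal membrane protein LAPTM4A (0.984) and the histone demethylase KDM1A (0.984). For PTGS1 they were MRPL53, a mitochondrial ribosomal protein (r = 0.988), the progranulin gene GRN (0.982), the iron-sulfur scaffold ISCU (0.976) and SERPINF1 (0.974), each with normotensive replicate 2 as its highest array. PTGS2 and PTGES correlated with each other at r = 0.870, and PTGES took place 218 among the 5270 genes ordered by likeness to PTGS2. PTGS1 correlated with PTGS2 at r = -0.43 and with PTGES at r = -0.11.

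**Figure D4:**
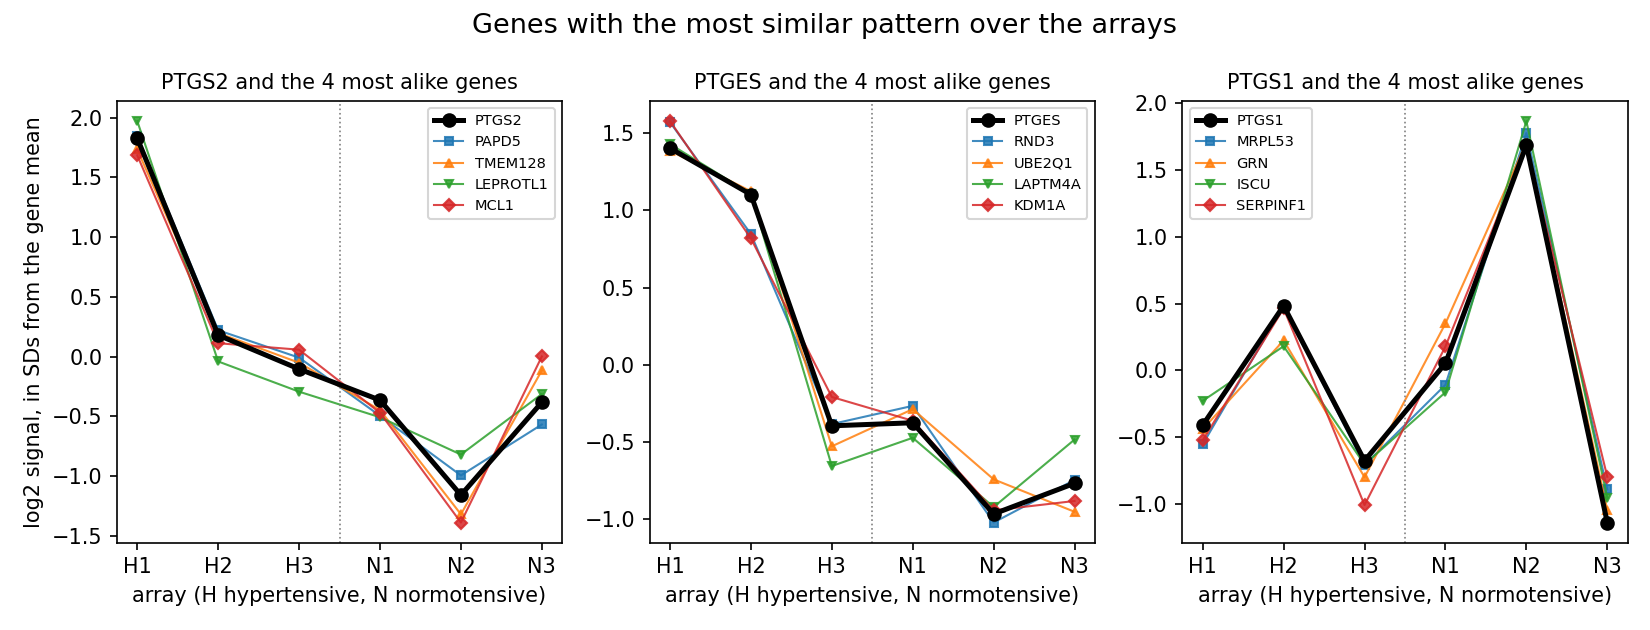
Log2 signal of PTGS2, PTGES and PTGS1 (black) and of the 4 genes most like each, in SDs from each gene's mean, on hypertensive (H) and normotensive (N) arrays 1 to 3; lines join the points of a gene and carry no order. PTGS2 and its like genes peak on H1, PTGES on H1 and H2, and PTGS1 on N2.

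Markers of the cells that a leaflet can hold were read beside these results. Interstitial cell markers were measured for 7 genes, with VIM at 20203 to 26412 on hypertensive and 22536 to 24275 on normotensive arrays, so the defining marker of the labelled cells was present. All 7 had lower means, where 47.3% of all probe sets had higher means; 0 passed (adjusted p from 0.257), and their summed signal was 50960 to 64527 on hypertensive arrays against 73899 to 74826 on normotensive arrays. Endothelial markers, relevant because endothelium expresses PTGS1, were at 2077 to 4366 summed in hypertensive and 2492 to 3061 in normotensive leaflets. The sum of 4366, on hypertensive replicate 1, included 2296 from SELP, so these ranges do not compare the remaining markers. VWF, KDR and CLDN5 were below the filter level on every array, while PECAM1 (409 to 1396) and ERG were well above it on every array. ERG was wholly lower on hypertensive arrays, at 899, 1019 and 973 against 1675, 1142 and 1780 on normotensive arrays (log2 -0.64, SE 0.27, limma adjusted p = 0.288). Within that list SELP, the P-selectin gene, was at 2296, 784 and 368 on hypertensive arrays against 95.4, 245 and 90.6 on normotensive arrays (log2 2.76, SE 0.67, adjusted p = 0.235), while the 4 other genes that reached the filter on average had lower means. A pair of endothelial genes below the filter on average also had hypertensive arrays wholly above the normotensive ones, a pattern not counted over all probe sets below the filter. CDH5, the endothelial cadherin gene, was at 68.4, 115 and 84.9 on hypertensive arrays and at 30.3, 12.3 and 40.5 on normotensive arrays, and SELE, the E-selectin gene, was at 443, 64.6 and 29.3 on hypertensive arrays and at 1.11, 4.50 and 1.62 on normotensive arrays. Platelet markers, also relevant to PTGS1, were measured for 3 genes and summed to 294 to 585 on hypertensive and 244 to 505 on normotensive arrays. Of the smooth muscle markers 2 reached the filter, both with lower means, and 0 of 4 heart muscle markers did. The part of cell makeup in the PTGS2 and PTGES differences was not tested. Of common control genes, GAPDH had a log2 difference of 0.11 (SE 0.15) and ACTB one of 0.32 (SE 0.24).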

How the data were processed

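Per the labels' protocols, 70 ng of total RNA from each sample went through linear amplification by in vitro transcription, and 10 µg of cRNA went onto a porcine Affymetrix array. The authors deposited linear signal intensities made with GCOS and MAS5, per the submitters' processing notes, which name no version. The 2% trimmed mean was 500.11 to 500.131 on every array. The number of arrays limits the precision, and detection calls were not used here.

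Leaving aside 124 control probe sets of 24123 left 23999, of which the platform annotation gives 10069 a single symbol, 198 several and 13732 none. Signals were taken to log2 with no pseudocount. The 14399 probe sets reaching the 40th percentile of mean log2 signal entered 1 fit in limma (version 3.58.1, under R 4.3.3), using lmFit and eBayes with an intensity trend, tested 2-sided, with Benjamini-Hochberg adjustment over all 14399 at 0.05. The script was tested on simulated data. Within-array differences were compared by exact permutation tests over arrays (SciPy 1.17.1). Same-numbered arrays deviated together with correlations of 0.06, 0.07 and 0.23; pairing needed all above 0.1, so no block was used.

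The genes, lists and tests were chosen with earlier results of these data known. Named genes were all probe sets of the 3 genes, pathway genes above the filter, the 6 regulators of smallest p, the 4 genes most alike each enzyme, and GAPDH and ACTB; other pathway and marker genes given by name were chosen after their values were seen. Alternatives were quantile normalization, shifting each array's median, dropping the filter or setting it at the 60th percentile, pseudocounts of 16 and 64, eBayes without trend or robust, array weights, a replicate block, leaving out each array, and averaging a gene's kept probe sets.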

Additional observations from a re-analysis of the deposited data

How the results depend on the processing

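PTGS2, PTGES and PTGS1 stayed short of the threshold under all 16 alternatives each. PTGS2 kept a positive log2 difference, between 0.94 and 2.28 with 1 array left out and between 0.78 and 1.82 otherwise, lowest with array weights (adjusted p = 0.129). Hypertensive replicates 1, 2 and 3 had weights of 0.289, 0.195 and 2.38. Normotensive replicates 1, 2 and 3 had weights of 6.96, 0.931 and 1.15, so that fit rested largely on 1 array in each group. PTGES also kept its sign, between 0.60 and 1.10 with 1 array left out and between 0.21 and 0.85 otherwise, lowest with array weights (adjusted p = 0.419). PTGS1 ran from -0.29 to 0.092 with 1 array left out, turning positive (0.092) without normotensive replicate 2. The shift of PTGS2 against PTGS1 ran from 1.02 to 2.32, that of PTGES against PTGS1 from 0.63 to 1.15 and that of PTGS2 against PTGES from 0.34 to 1.40. The number of probe sets past the threshold, 0 in the comparison reported, was 5639 with array weights and ran from 0 to 3505 with 1 array left out, being 3505 without hypertensive replicate 2 and 1 without normotensive replicate 2; the cause was not tested. PLA2G12A turned to 0.015 with array weights and ran from -0.60 to 0.27 with 1 array left out, positive without hypertensive replicate 1. PTGFR ran from -0.44 to 0.57 with 1 array left out, negative without hypertensive replicate 3, and was at 1.05 with array weights. ATF3 ran from 0.24 to 1.87 with 1 array left out and was at 0.0046 with array weights. With array weights, ANXA1, PTGES3, PTGFR, PTGR1, PTGR2, ALOX5AP, NFKBIA, CEBPB, IL6, IL1A and IL1B passed.

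With the replicate number as a block, the log2 differences were unchanged at 1.76, 0.79 and -0.11, with adjusted p of 0.166 for PTGS2, 0.1997 for PTGES and 0.795 for PTGS1, and 0 probe sets passed; each array correlated best with its own number, a hint from the data and not the design. The exact paired sign-flip permutation test of the PTGS2 shift against PTGS1 gave p = 0.25, the smallest that 3 pairs allow.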

Other observations

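Of the eicosanoid genes below the filter, TBXAS1 and CYSLTR2 had hypertensive signals above all normotensive ones. Among probe sets that reached the filter this held for 10.4%, and the share among those below it was not counted. TBXAS1, the thromboxane synthase, was at 23.2, 42.3 and 38.2 on hypertensive replicates 1, 2 and 3 and at 3.38, 6.44 and 6.34 on normotensive arrays, with every value below the filter level of 48.5, so no fold is given. CYSLTR2, a receptor of the cysteinyl leukotrienes, was above that level on all hypertensive arrays, at 84.5, 61.1 and 61.8, and below it on all normotensive arrays, at 37.9, 17.8 and 1.41. PRXL2B, a prostaglandin F synthase listed in the annotation under its older name FAM213B, was at 27.3, 106 and 5.52 on hypertensive arrays and 99.6, 97.1 and 70.9 on normotensive arrays, with overlapping groups. These genes were named after their values were seen and were not tested.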
